A study of Mus musculus with 6 samples.

Results

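The 10 genes described here code for proteins of the muscle triad and its calcium store, and for parvalbumin, which binds calcium in the cytosol. Their transcripts were followed in brown adipose tissue (BAT) of mice on a high-fat or a low-fat diet. These 10 genes were *Casq1*, *Casq2*, *Trdn*, *Jph1*, *Jph2*, *Jsrp1*, *Stac3*, *Srl*, *Hrc* and *Pvalb*. Each was matched by its symbol to 1 of the 47729 genes in the files. The genes were chosen by their known place in muscle and with their difference between the diets already in view. Their levels and fold changes between the diets are therefore given as a description, without a test.

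Male C57BL/6J mice were fed from 6 to 10 weeks of age, for 4 weeks, either a high-fat diet labelled as 45% fat (HFD) or a low-fat diet labelled as a standard rodent diet (LFD). RNA came from the right side of the interscapular BAT pad, and each library came from 1 mouse. There were 3 mice per diet, taken by the study as those with the greatest, the medium and the least fat mass of their group. All mice were of 1 strain and sex, and none carried a transgene or received a drug, as far as the labels and the methods say. The libraries held 17157059 to 21603566 rounded counts each.

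In a skeletal muscle fibre, the triad is the contact between a transverse tubule of the surface membrane and the end sacs of the sarcoplasmic reticulum. A voltage sensor in the tubule opens the ryanodine receptor in the reticulum, calcium leaves the store and the fibre contracts. Inside the store the calcium is held by calsequestrin and other luminal proteins. In a brown adipocyte, which has no triads, calcium is stored in the endoplasmic reticulum, and cycling of calcium by SERCA pumps can release heat.

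The summed level of the 10 genes was lower in all 3 HFD-fed mice than in all 3 LFD-fed mice. The sum was 16.3, 34.3 and 9.66 TPM (a level per transcript length, scaled to the same total in each library) in HFD-fed mice 1, 2 and 3. It was 367, 981 and 104 TPM in LFD-fed mice 1, 2 and 3. Each of the 10 genes had a lower fitted level in the HFD-fed mice, with log2 fold changes, HFD over LFD, from -6.28 for *Pvalb* to -1.21 for *Casq2*. The median over the 10 genes was -4.80, beside -0.05 over all 17670 genes tested. For 8 genes, every HFD-fed mouse was below every LFD-fed mouse, and *Casq2* and *Srl* were the exceptions. Of all tested genes, 9.22% had such a pattern. Since the diet contrast had a part in the choice of the genes, nothing is read from that comparison.

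Markers of skeletal muscle fibres were also measured in the same libraries. The 13 fibre markers, which include *Acta1*, the actin of skeletal muscle, and *Ckm*, muscle creatine kinase, summed to 92.6, 342 and 14.4 TPM in the HFD-fed mice. In the LFD-fed mice they summed to 5358, 12982 and 1928 TPM. With edgeR's quasi-likelihood test, 12 of the 13 were lower in HFD-fed mice at an unadjusted p under 0.05 and none was higher, beside 6.62% of all tested genes lower. edgeR called 0 of the 13 after adjustment (smallest adjusted p = 0.173). DESeq2 called 12 lower, beside 1.54% of the 19996 genes it gave an adjusted p. Every HFD-fed mouse was below every LFD-fed mouse for the 12 genes, beside 9.22% of all tested genes. The exception was *Mb*, myoglobin, at 50.2, 152 and 6.20 TPM in HFD-fed mice and 95.0, 326 and 63.9 TPM in LFD-fed mice. Slow fibre markers summed to 2.35 to 4.98 TPM in HFD-fed mice and to 9.55 to 726 TPM in LFD-fed mice. The fibre lists, too, were chosen with earlier results of these data known, so nothing is read from their counts beside those shares. The part of muscle fibres in the levels of the 10 genes was not tested. In whole tissue, fewer cells of a type and less RNA per cell cannot be told apart.

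The 13 brown adipocyte markers summed to 6247 to 13569 TPM in HFD-fed mice and to 3649 to 13212 TPM in LFD-fed mice. The ranges overlapped. *Fabp4*, which white fat also uses, was the largest term of this sum in every mouse. It had 4628, 5014 and 3664 TPM in HFD-fed mice and 8136, 7354 and 2624 TPM in LFD-fed mice. *Ucp1*, which uncouples respiration in brown adipocytes, had 2728, 4021 and 796 TPM in HFD-fed mice and 443, 11.0 and 76.0 TPM in LFD-fed mice. The median log2 fold change of the list was 1.299, with 2.19 ± 1.17 for *Cidea*, a lipid droplet protein, and 2.18 ± 1.03 for *Cox7a1*, a subunit of the respiratory chain. Among genes that white fat also uses, the values were -1.19 ± 0.76 for *Adipoq*, the hormone adiponectin, -0.78 ± 0.84 for *Plin1*, a droplet coat protein, -0.35 ± 0.76 for *Fabp4*, which binds fatty acids, and 0.02 ± 0.59 for *Pparg*, a regulator of fat cells. edgeR called 0 of the 13 (smallest adjusted p = 0.351). At an unadjusted p under 0.05, 2 were higher, beside 682 of all 17670 tested genes. Smooth muscle markers summed to 61.0 to 173 TPM in HFD-fed mice and 53.4 to 227 TPM in LFD-fed mice. Macrophage markers summed to 1513 to 3377 TPM in HFD-fed mice and 414 to 3608 TPM in LFD-fed mice. *Lyz2* was the largest term of this sum in every mouse. The median log2 fold change of the 10 macrophage markers was 0.81, and edgeR called 0 (smallest adjusted p = 0.241). At an unadjusted edgeR p under 0.05, 2 were higher and 1 lower, beside 682 higher and 1170 lower of all 17670 tested genes. The 8 heart markers summed to 1.52 to 3.04 TPM in HFD-fed mice and to 1.10, 47.5 and 4.79 TPM in LFD-fed mice. Most of the sum in LFD-fed mouse 2 came from *Actc1*, at 31.2 TPM, and *Tnnt2*, at 12.5 TPM. In HFD-fed mice *Actc1* had 0, 0.31 and 0.08 TPM and *Tnnt2* 0.06, 0.06 and 0.29 TPM. Of the same list, *Myh6*, the main myosin of the adult mouse heart, stayed at or below 0.07 TPM in all mice. *Myl7*, a myosin light chain of the atria, stayed at or below 0.14 TPM. The mitochondrially encoded genes took 8.50% to 22.7% of the counts in HFD-fed mice and 3.87% to 13.8% in LFD-fed mice.

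The promoters of 4 genes are printed to show the sequence before the start of genes at both ends of the range, with *Casq2* the least and *Pvalb* the most reduced. Each is the 250 bases before the start, 5′ to 3′ on the strand of the gene, from RefSeq on GRCm38.p6, and start tables were matched for 5 of the 10 genes. Capitals mark matches to an E-box (CANNTG, the motif of myogenic bHLH factors, searched on both strands) and to the MEF2 motif. *Casq1* lies at chr1:172219896-172220145 on the minus strand, *Casq2* at chr3:102086165-102086414 on the plus strand, *Hrc* at chr7:45335019-45335268 on the plus strand and *Pvalb* at chr15:78206401-78206650 on the minus strand. *Pvalb* has more than 1 start, and the one shown belongs to its main transcript.
Casq1: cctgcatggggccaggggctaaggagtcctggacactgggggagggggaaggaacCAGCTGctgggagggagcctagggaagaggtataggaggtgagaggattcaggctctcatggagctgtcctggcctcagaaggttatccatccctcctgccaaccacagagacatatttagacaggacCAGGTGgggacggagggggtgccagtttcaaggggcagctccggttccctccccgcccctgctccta
Casq2: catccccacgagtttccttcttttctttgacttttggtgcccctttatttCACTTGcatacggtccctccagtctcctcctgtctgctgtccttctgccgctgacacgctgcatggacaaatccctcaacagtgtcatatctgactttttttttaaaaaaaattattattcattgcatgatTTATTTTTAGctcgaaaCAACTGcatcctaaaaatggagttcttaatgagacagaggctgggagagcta
Hrc: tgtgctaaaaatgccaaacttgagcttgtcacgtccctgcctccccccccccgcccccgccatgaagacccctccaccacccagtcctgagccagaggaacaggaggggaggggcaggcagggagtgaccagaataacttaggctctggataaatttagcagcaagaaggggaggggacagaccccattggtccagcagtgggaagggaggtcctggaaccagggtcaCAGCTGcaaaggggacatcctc
Pvalb: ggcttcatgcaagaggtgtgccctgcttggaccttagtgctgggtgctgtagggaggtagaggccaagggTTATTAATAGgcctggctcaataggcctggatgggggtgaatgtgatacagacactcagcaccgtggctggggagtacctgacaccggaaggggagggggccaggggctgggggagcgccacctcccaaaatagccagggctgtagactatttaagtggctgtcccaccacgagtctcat

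The *Casq1* window held E-boxes that began 195 and 67 bases before the start, the first of them CAGCTG. *Casq2* had E-boxes at 200 and 52 bases and a MEF2 match at 69 bases. *Hrc* had CAGCTG at 22 bases, and *Pvalb* a MEF2 match at 180 bases. *Jph2*, the other gene with a start table, had CAGCTG at 29 bases before one of its starts. An E-box was found for 5 of 5 genes, counting every start of a gene, beside 66.2% of 32817 promoter windows of the same length. For *Pvalb* it lay 111 bases before a start not printed here, and the printed window held 0. The windows were counted singly, so a gene with more than 1 start had more room for a match. CAGCTG, which is itself an E-box, was found for 3 of 5 genes beside 4268 of the windows. A MEF2 match was found for 2 of 5 genes beside 2.92% of windows. The CArG box, the motif of serum response factor, was found for 0 of 5 genes beside 1.47% of windows. These matches describe letters in these windows and are not sites of binding.

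*Casq1* codes for the calsequestrin of fast muscle, the main calcium buffer inside the reticulum. *Casq1* (chromosome 1, 172209894 to 172219868, GRCm38) had 1.09, 1.43 and 0.35 TPM in HFD-fed mice 1, 2 and 3, from 28, 30 and 9 rounded counts. In LFD-fed mice it had 48.0, 130 and 14.7 TPM, from 1148, 2578 and 266 counts. The groups did not overlap, and the lowest LFD-fed mouse stood above the highest HFD-fed mouse by far more than the HFD-fed mice differed. The group means were 0.957 ± 0.552 and 64.2 ± 59.2 TPM (SD, n = 3 per diet), with a fitted log2 fold change of -5.95 ± 0.99 (SE).

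*Casq2* codes for the calsequestrin of the heart, which is also made in slow muscle fibres. It (chromosome 3, 102086415 to 102146514) had 0.90, 6.08 and 2.77 TPM in HFD-fed mice and 1.93, 23.7 and 3.43 TPM in LFD-fed mice. The groups overlapped, since HFD-fed mouse 2 was above LFD-fed mice 1 and 3 and HFD-fed mouse 3 was above LFD-fed mouse 1. Its log2 fold change was -1.21 ± 0.98, and without LFD-fed mouse 2 the value was 0.51.

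*Hrc* codes for the histidine-rich calcium-binding protein of the reticulum lumen, which also binds triadin. It (chromosome 7, 45335290 to 45338974) had 0.16, 0.77 and 0.02 TPM in HFD-fed mice, and its HFD counts were only 8, 29 and 1. In LFD-fed mice the levels were 9.32, 39.3 and 5.93 TPM, from 389, 1286 and 167 counts. All HFD-fed mice were below all LFD-fed mice, with a log2 fold change of -5.64 ± 1.19.

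*Srl* codes for sarcalumenin, a luminal glycoprotein that binds calcium and stabilizes the SERCA pump. It (chromosome 16, 4480216 to 4541816) kept the highest level of the 10 genes in HFD-fed mice, at 9.24, 16.0 and 4.01 TPM from 533, 639 and 207 counts. In LFD-fed mice it had 33.4, 92.7 and 13.1 TPM. The groups overlapped by 1 mouse on each side, with HFD-fed mouse 2 above LFD-fed mouse 3. The log2 fold change was -2.28 ± 0.77, from means of 9.76 ± 6.02 and 46.4 ± 41.4 TPM. *Srl* made up 41.5% to 56.5% of the summed TPM of the 10 genes in HFD-fed mice and 9.11% to 12.5% in LFD-fed mice.

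**Figure D1:**
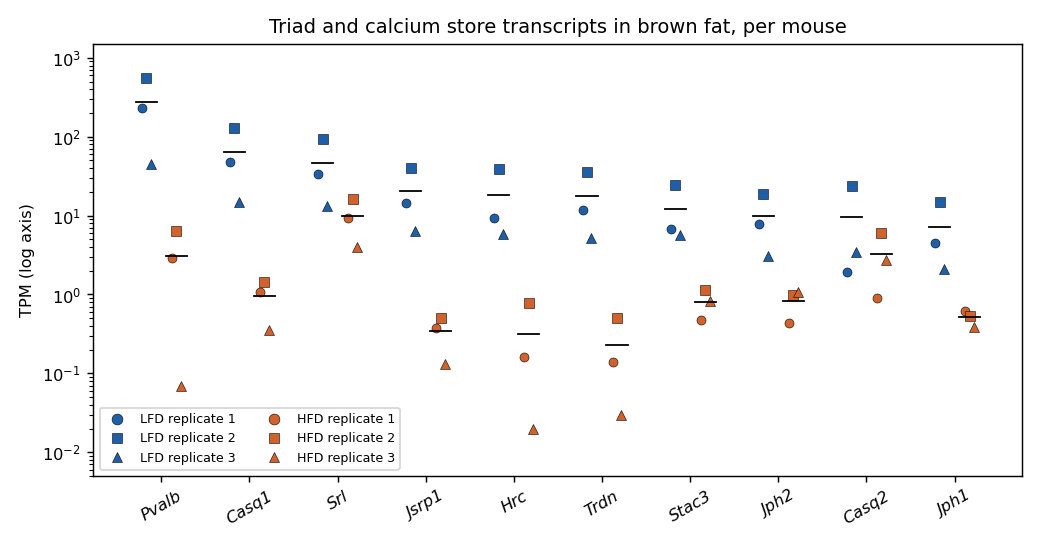
Level of each of the 10 genes in TPM on a log axis, with 1 point per mouse and a bar at the mean of each diet (n = 3 per diet). Points of the diets are apart for 8 genes, while for *Casq2* and *Srl* HFD-fed mouse 2 lies above the lowest LFD-fed mouse.

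*Trdn* codes for triadin, which ties calsequestrin to the ryanodine receptor. It (chromosome 10, 33080554 to 33476709) had 0.14, 0.51 and 0.03 TPM in HFD-fed mice from 14, 36 and 2 counts. In LFD-fed mice it had 11.9, 35.9 and 5.19 TPM from 935, 2217 and 275 counts. The groups were well apart, and the log2 fold change was -6.10 ± 1.16.

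*Jsrp1* codes for a junctional protein of the sarcoplasmic reticulum that binds both calsequestrin and the voltage sensor. It (chromosome 10, 80808496 to 80813498) had 0.38, 0.51 and 0.13 TPM in HFD-fed mice, from 4, 8 and 2 counts. In LFD-fed mice it had 14.4, 40.6 and 6.37 TPM. The groups did not overlap, and the log2 fold change was -5.84 ± 0.91.

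The junctophilins hold the surface membrane and the reticulum together. *Jph1*, the form of skeletal muscle (chromosome 1, 16964560 to 17097889), had 0.62, 0.53 and 0.39 TPM in HFD-fed mice and 4.47, 15.1 and 2.09 TPM in LFD-fed mice. *Jph2*, found in heart and skeletal muscle (chromosome 2, 163336242 to 163397993), had 0.43, 0.98 and 1.06 TPM in HFD-fed mice and 7.77, 18.9 and 3.12 TPM in LFD-fed mice. For both genes the diets did not overlap, and the HFD-fed mice lay close together. Their log2 fold changes were -3.23 ± 0.77 and -3.47 ± 0.70.

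*Stac3* codes for the adaptor that the voltage sensor of skeletal muscle needs to reach the membrane and to signal. It (chromosome 10, 127501686 to 127508823) had 0.47, 1.13 and 0.83 TPM in HFD-fed mice, from 9, 18 and 10 counts. In LFD-fed mice it had 6.79, 24.4 and 5.62 TPM. The groups did not overlap, with a log2 fold change of -3.96 ± 0.72.

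*Pvalb* codes for parvalbumin, which is no part of the triad but binds calcium in the cytosol of fast fibres and speeds relaxation. It (chromosome 15, 78191114 to 78206400) had 2.91, 6.32 and 0.07 TPM in HFD-fed mice from 56, 89 and 1 counts. In LFD-fed mice it had 229, 560 and 44.8 TPM from 3578, 6860 and 472 counts. No HFD-fed mouse came near the LFD range, and the log2 fold change was -6.28 ± 1.54. *Pvalb* took 42.9% to 62.4% of the summed TPM of the 10 genes in LFD-fed mice and 0.725% to 18.4% in HFD-fed mice.

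The mean levels had a different order in each diet. In LFD-fed mice the order from high to low was *Pvalb*, *Casq1*, *Srl*, *Jsrp1*, *Hrc*, *Trdn*, *Stac3*, *Jph2*, *Casq2* and *Jph1*. In HFD-fed mice it was *Srl*, *Casq2*, *Pvalb*, *Casq1*, *Jph2*, *Stac3*, *Jph1*, *Jsrp1*, *Hrc* and *Trdn*. For 0 of 9 pairs of neighbours in either diet were the ranges over the mice apart. Within each mouse, *Pvalb*, *Casq1*, *Srl*, *Jsrp1* and *Hrc* kept this order in 3 of 3 LFD-fed mice, and the lower neighbours changed places between mice. In HFD-fed mice the order was kept in 3 of 3 mice for only 2 of the 9 pairs, *Srl* above *Casq2* and *Jph1* above *Jsrp1*.

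The mice of 1 diet differed from each other together across the genes. LFD-fed mouse 2 was the highest LFD-fed mouse for 10 of 10 genes, and LFD-fed mouse 3 the lowest for 9, with *Casq2* lowest in LFD-fed mouse 1. The highest LFD-fed mouse exceeded the lowest by 4.34-fold for *Stac3* to 12.5-fold for *Pvalb*. HFD-fed mouse 2 was the highest HFD-fed mouse for 8 genes, and HFD-fed mouse 3 the lowest for 7. The summed level of the 10 genes and that of the fibre markers both had mouse 2 highest, then mouse 1, then mouse 3, in each diet. Between mice of the same number, the HFD-fed mouse was lower for 10 of 10 genes.

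**Figure D2:**
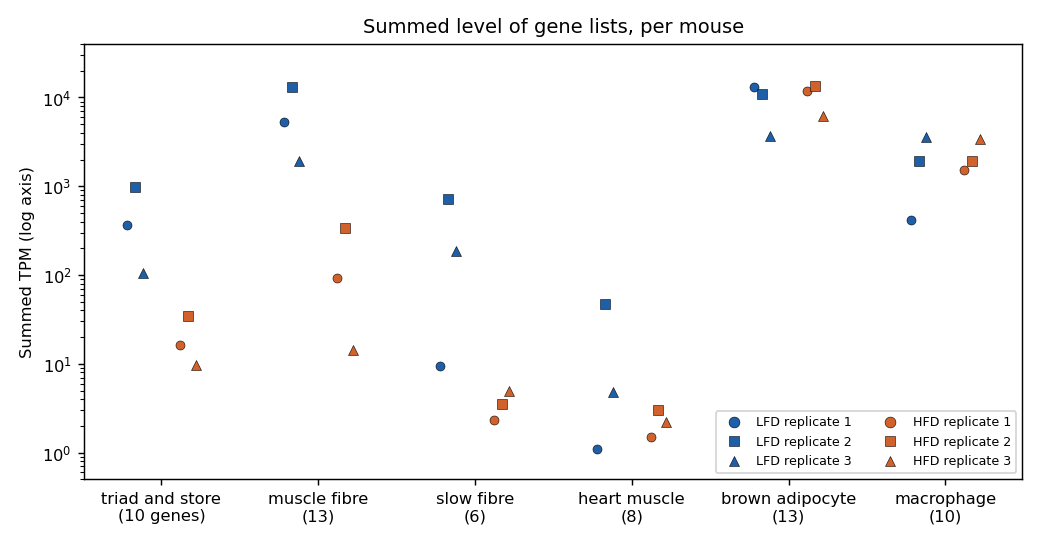
Summed TPM of each list of genes on a log axis, with 1 point per mouse (n = 3 per diet). The 10 genes, the skeletal muscle fibre markers and the slow fibre markers are apart between the diets, while the heart muscle, brown adipocyte and macrophage markers overlap.

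The calling rules of the study, an adjusted p under 0.01 and a log2 fold change beyond 1.5, gave different counts by tool. edgeR called 0 of the 10 genes lower, beside 0% of the 17670 tested genes, and 9 of the 10 had an unadjusted p under 0.05, beside 6.62%. DESeq2 called 8 of the 10 lower, beside 1.54% of the 19996 genes it gave an adjusted p. These counts carry the choice of the genes, and nothing is read from them. The smallest edgeR adjusted p over all genes was 0.1705.

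Other genes of excitation and contraction were listed to set the 10 genes in their pathway. This list held 25 genes of the voltage sensor, the release channel, the pumps and the tubule, of which 24 were tested (*Ryr3* had too few counts). With edgeR and Benjamini-Hochberg adjustment 0 of 24 were called in either direction, and the smallest adjusted p was 0.1705. At an unadjusted p under 0.05, 15 were lower and 0 higher, beside 6.62% of all tested genes lower. DESeq2 called 12 lower and 0 higher, beside 1.54% lower of the 19996 genes it gave an adjusted p. The list was chosen with earlier results of these data known, so nothing is read from these counts. The median log2 fold change was -1.49. The summed TPM was 424 to 544 in HFD-fed mice and 723 to 1768 in LFD-fed mice.

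The voltage sensor, the release channel and the pump of fast fibres were among the partners with the most negative fitted log2 fold changes. *Cacna1s*, the pore of the voltage sensor, had 0.16, 0.39 and 0.17 TPM in HFD-fed mice and 16.4, 43.7 and 5.61 TPM in LFD-fed mice. The fitted log2 fold change was -6.48 ± 1.11 (edgeR adjusted p = 0.1705). *Ryr1*, the release channel of skeletal muscle, had 0.24, 0.87 and 0.10 TPM against 24.1, 56.2 and 6.54 TPM, with a log2 fold change of -5.94 ± 1.13 (edgeR adjusted p = 0.173). *Atp2a1*, the calcium pump of fast fibres, had 2.63, 8.84 and 0.22 TPM against 316, 665 and 79.7 TPM. Its log2 fold change was -6.29 ± 1.51 (edgeR adjusted p = 0.214). *Sln*, the peptide that uncouples the pump in muscle, was listed at 0, 0.14 and 0 TPM in HFD-fed mice and at 2.81, 39.4 and 6.45 TPM in LFD-fed mice. *Tmem38a*, a potassium channel of the reticulum, had a log2 fold change of -4.12 ± 0.74 (edgeR adjusted p = 0.173).

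*Atp2a2*, the calcium pump of heart, slow muscle and most other cells, had 60.0, 97.7 and 75.6 TPM in HFD-fed mice and 48.6, 122 and 97.7 TPM in LFD-fed mice. The ranges overlapped. Its log2 fold change was 0.10 ± 0.28 (edgeR adjusted p = 0.954). *Stim1*, the calcium sensor of the store, and *Orai1*, the channel it opens, had log2 fold changes of -0.36 ± 0.37 and -0.25 ± 0.26 (edgeR adjusted p = 0.833 and 0.832). *Bin1*, which shapes membrane tubules, *Asph*, whose locus also codes for the triad protein junctin, and *Fkbp1a*, which binds ryanodine receptors, had log2 fold changes of -0.87 ± 0.27, -0.85 ± 0.27 and -0.60 ± 0.27 (edgeR adjusted p = 0.326, 0.346 and 0.505). *Speg*, a kinase of striated muscle, had -1.39 ± 0.51 and *S100a1*, a calcium sensor of muscle, 0.09 ± 0.70 (edgeR adjusted p = 0.412 and 0.983). *Dysf* and *Mtm1*, which act at muscle membranes and also elsewhere, had 0.45 ± 0.26 and 0.35 ± 0.26 (edgeR adjusted p = 0.622 and 0.730).

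*Ryr2*, the release channel of the heart, went the other way from *Ryr1*. It had 1.13, 1.09 and 0.62 TPM in HFD-fed mice and 0.04, 0.04 and 0.03 TPM in LFD-fed mice. The fitted log2 fold change was 4.94 ± 0.59 and missed the threshold (edgeR adjusted p = 0.1705), while DESeq2 called it higher (adjusted p = 1.24e-11).

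**Figure D3:**
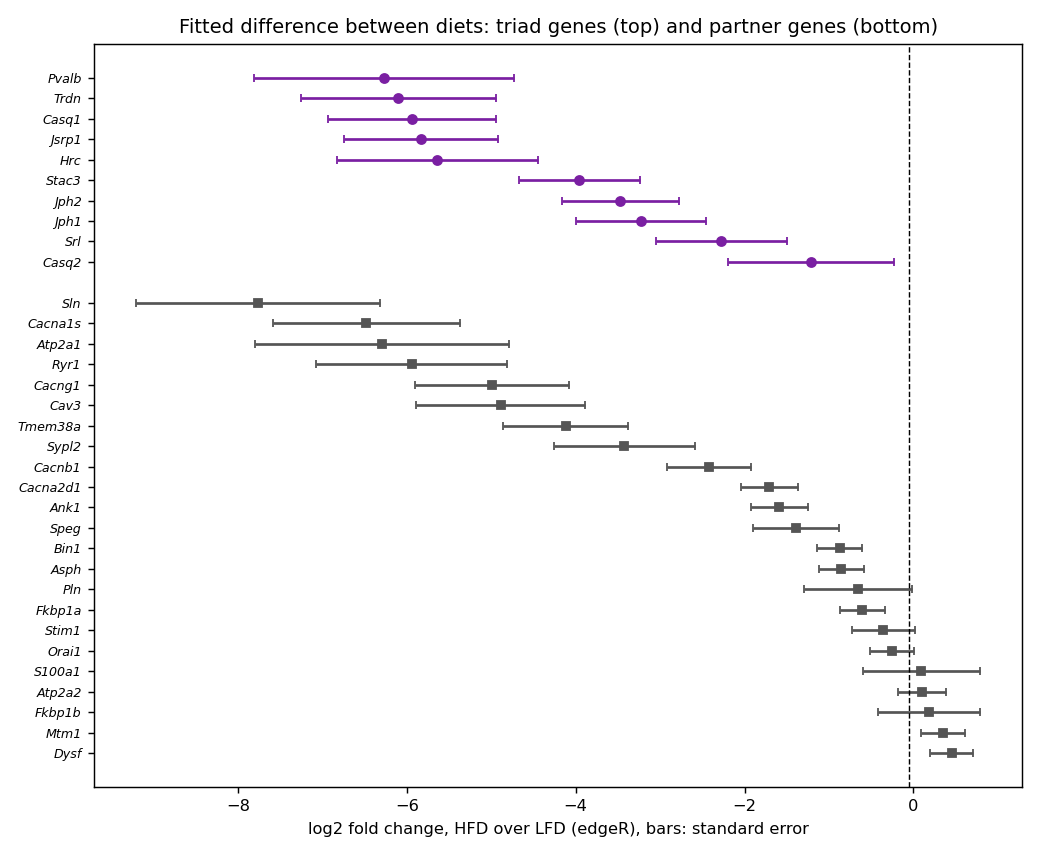
Fitted log2 fold change, HFD over LFD, with its standard error as a bar, for the 10 genes (top) and tested partner genes (bottom, 1 left out), and a dashed line at the median of all tested genes, -0.05. The 10 genes range from -6.28 to -1.21, and the partners from far below 0 to 0.45 for *Dysf*.

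Transcript levels were also read for 12 genes of calcium-binding proteins in the endoplasmic reticulum, which every cell has. Calcium storage itself was not measured. The 12 genes include *Calr*, calreticulin, the main luminal calcium buffer outside muscle, and *Hspa5*, the luminal chaperone that also binds calcium. edgeR called 0 of 12 in either direction, as it did over all 17670 tested genes, and the smallest edgeR adjusted p was 0.564. At an unadjusted p under 0.05, 0 were lower and 0 higher, beside 6.62% of all tested genes lower and 682 genes higher. DESeq2 called 0, beside 1.54% lower and 106 genes higher of the 19996 it gave an adjusted p. For 12 genes these counts are near those shares, and nothing is read from them. *Calr* had 224, 455 and 662 TPM in HFD-fed mice and 284, 401 and 676 TPM in LFD-fed mice. *Hspa5* had 264, 447 and 792 TPM against 267, 293 and 541 TPM, with a log2 fold change of 0.64 ± 0.38 (edgeR adjusted p = 0.635). The list had a median log2 fold change of -0.24, which turned to 0.024 with same-numbered mice as a block and to 0.42 without LFD-fed mouse 3. The summed TPM was 1267 to 3103 in HFD-fed mice and 1371 to 4198 in LFD-fed mice. The diets overlapped in the sum.

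The share of *Casq1* in the calsequestrin transcripts differed between the diets. *Casq1* was 54.8%, 19.0% and 11.2% of the TPM of *Casq1* and *Casq2* in HFD-fed mice and 96.1%, 84.5% and 81.1% in LFD-fed mice. The shares did not overlap, with means of 28.3% ± 23.2 and 87.3% ± 7.88 (SD, n = 3 per diet). The HFD shares rest on 9 to 30 counts of *Casq1* per mouse. The share of *Jph1* in *Jph1* and *Jph2* had no such split. It was 59.0%, 35.1% and 26.9% in HFD-fed mice and 36.5%, 44.3% and 40.1% in LFD-fed mice.

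*Jph1* and *Jph2* together made up 72.9% to 89.0% of the TPM of all 4 junctophilins in HFD-fed mice and 91.7% to 99.0% in LFD-fed mice. *Stac3* made up 18.1% to 29.0% of the TPM of the Stac family in HFD-fed mice, and 93.0%, 93.7% and 50.9% in LFD-fed mice. The other members of these families, which are known mainly from neurons and other tissues, had low levels in both diets. The 7 genes listed as paralogues summed to 1.28 to 5.39 TPM in HFD-fed mice and 0.83 to 6.68 TPM in LFD-fed mice.

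**Figure D4:**
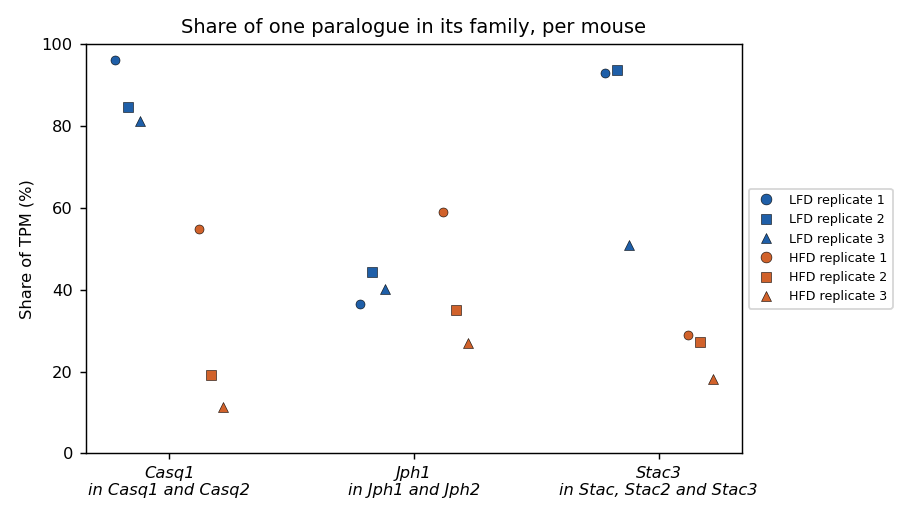
Share of *Casq1* in the calsequestrins, of *Jph1* in *Jph1* and *Jph2* and of *Stac3* in the Stac family, in percent of TPM, with 1 point per mouse (n = 3 per diet). The *Casq1* shares lie at 81.1% or more in LFD-fed mice and at 54.8% or less in HFD-fed mice, and the *Jph1* shares overlap.

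The level of each gene was also set against the summed fibre markers of the same mouse, as TPM per 1000 TPM of the 13 markers. In LFD-fed mice the spread of this ratio differed between the genes. For *Jph2* it was 1.45 to 1.62, for *Srl* 6.24 to 7.14 and for *Casq1* 7.63 to 10.0. It was wider for *Hrc*, at 1.74 to 3.08, for *Pvalb*, at 23.2 to 43.2, and for *Stac3*, at 1.27 to 2.92, and widest for *Casq2*, at 0.3602 to 1.83. In HFD-fed mice the ratio was above that of every LFD-fed mouse for 5 genes. It was 46.9 to 278 for *Srl*, 9.72 to 192 for *Casq2*, 2.87 to 73.6 for *Jph2*, 1.55 to 27.1 for *Jph1* and 3.31 to 57.6 for *Stac3*. The ratios of *Casq1* overlapped, at 4.18 to 24.3 in HFD-fed mice, and so did those of *Jsrp1*, *Hrc* and *Pvalb*. *Trdn* was lower in every HFD-fed mouse, at 1.49 to 2.08 against 2.21 to 2.77. With *Mb* left out of the markers, a choice made after seeing the data, the same number of genes, 5, was above and 0 was below, and *Trdn* overlapped. The HFD ratios rest on small sums, since the markers summed to only 14.4 TPM in HFD-fed mouse 3. By construction, any gene that falls less than the summed markers rises in this ratio. The ratio was not taken for all tested genes, so the count of 5 has no share beside it and nothing is read from it. *Mb* alone was 50.2, 152 and 6.20 of the 92.6, 342 and 14.4 TPM summed in HFD-fed mice 1, 2 and 3. In LFD-fed mice it was 95.0, 326 and 63.9 of 5358, 12982 and 1928 TPM, a much smaller part.

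**Figure D5:**
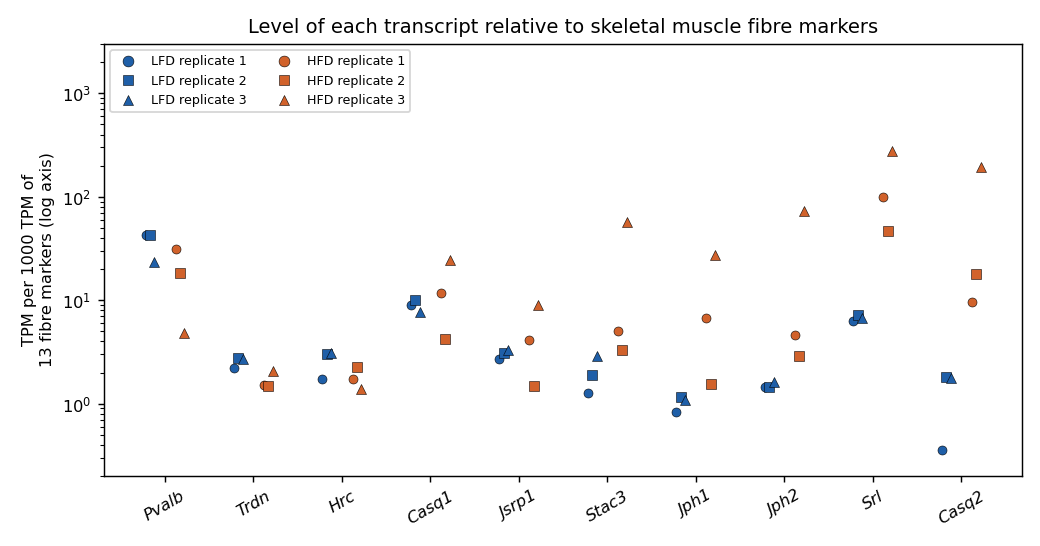
Level of each gene per 1000 TPM of the 13 skeletal muscle fibre markers in the same mouse, on a log axis, with 1 point per mouse (n = 3 per diet). *Casq2*, *Srl*, *Jph1*, *Jph2* and *Stac3* lie higher in every HFD-fed mouse, while *Casq1*, *Jsrp1*, *Hrc* and *Pvalb* overlap.

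Over the 6 mice, 9 of the genes moved nearly together. The correlation of a gene with the mean of the other 9 was 0.94 to 0.99 for these, and 0.48 for *Casq2*. The points share their libraries and the split by diet, and the values are a description over n = 6 mice. Among 17405 other genes, 304 had a correlation above 0.95 with the mean of the 10. The nearest were *Sufu* (0.999), *Homer2* (0.999), *Ankrd23* (0.998), *Sgca* (0.998) and *Rpl3l* (0.998). Their log2 fold changes were -0.52, -2.84, -3.16, -5.50 and -5.15, so likeness in pattern did not mean likeness in size.

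The mean transcript length that RSEM used, weighted by isoform, differed between the diets for a few of the genes. For *Srl* it was 2706, 2566 and 3049 bases in HFD-fed mice and 3078, 3265 and 3696 bases in LFD-fed mice, shorter in every HFD-fed mouse. For *Jph1* it was 4809 bases in all HFD-fed mice and 4408, 3839 and 4237 bases in LFD-fed mice. The *Jph1* difference stands for a transcript of 614 bases, annotated for nonsense-mediated decay, with 0% of the molecules in HFD-fed mice and 9.56%, 23.1% and 13.6% in LFD-fed mice. Those shares amount to about 4.10, 26.2 and 1.84 reads, so they rest on very few. For *Pvalb* the transcript of 953 bases held 100% of the molecules in HFD-fed mice and 98.1%, 98.1% and 87.7% in LFD-fed mice. *Trdn* and *Hrc* have 1 transcript each in the annotation.

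Several of the genes share their place with others. Exons coincided with those of a gene on the opposite strand for *Casq1* (*Gm17224*, over 156 bases) and *Jph1* (*Gm28376*, over 34 bases). The strand setting of the counting was not given in the sources used here, so without strand, reads from these bases could belong to either gene. *Casq2*, *Trdn* and *Srl* overlap other genes, among them the antisense gene *D830005E20Rik* within *Trdn*, with 0 bases of exon in common. *Jph2*, *Jsrp1*, *Stac3*, *Hrc* and *Pvalb* overlap no other gene.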

How the data were processed

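Gene expression was measured by RNA sequencing of BAT from 3 HFD-fed and 3 LFD-fed mice, and samples were grouped by the diet and number in their titles. Per the study's methods and the processing notes, reads were trimmed with Trimmomatic 0.36 and quantified with RSEM 1.3.0 against GRCm38 and the gene models of Ensembl 84. The authors deposited expected counts per gene, which are not normalized and split a read between the genes it matches. TPM values were also deposited, which are divided by length and scaled to a fixed total per mouse, and the isoform-weighted length in bases that was behind them.

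Expected counts were rounded to whole numbers. The fit used edgeR 4.0.16 in R 4.3.3 with TMM normalization, edgeR's filter on low counts, the quasi-likelihood test and Benjamini-Hochberg adjustment over all 17670 genes. Fold changes are on the log2 scale with an SE. The SE was worked back from the test, as the absolute fold change over the square root of its F statistic. Genes were called where the adjusted p was under 0.01 and the log2 fold change was beyond 1.5 in either direction. DESeq2 1.42.0 was run as an alternative, beside other normalizations, filters and prior counts, log2(TPM + 1), log2(TPM + 0.1), leaving out mitochondrially encoded genes and leaving out each mouse. The fits were tested on simulated data.

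The 10 genes and all lists were chosen with earlier results of these data known. All 10 genes are given in full, genes of the lists may be named, and the 5 other genes most correlated with the mean of the 10 over the 6 mice, among those with a mean of at least 10 counts, are named. Means are ± SD. Positions are from GENCODE M21 on GRCm38 and promoters from RefSeq on GRCm38.p6. The labels number the mice 1 to 3 in each diet, and deviations from the group means correlated by 0.50, 0.23 and 0.52 between same-numbered mice. Between mice of different numbers the correlations ran from -0.53 to 0.05. With 3 mice per diet these correlations depend on each other. The numbers were taken as pairs in the fit with a replicate block, a choice that rests on the same data. The sources do not say that mice were matched. No library repeated another of the same diet, and libraries of different diets were not compared in this way. Counts between 1 and 10 limit the precision of the HFD values of several genes. Protein sequences were not used here, and 1 partner gene is counted in its list but not reported by itself.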

Additional observations from a re-analysis of the deposited data

How the results depend on the processing

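DESeq2 called 307 genes lower and 106 higher and 12 of the partner genes lower, where edgeR called 0 of each. Leaving out 1 mouse moved the genes lower at an unadjusted p under 0.05 between 710 and 1742, beside 1170, with 710 without HFD-fed mouse 3 and 734 without HFD-fed mouse 2. With mice of the same number as a replicate block this count was 1548, 0 genes were called, and the block changed no other call. The smallest adjusted p of that edgeR fit was 0.0103, just above the threshold of 0.01, beside 0.1705 without the block. The median log2 fold change of the endoplasmic reticulum genes was 0.024 with the replicate block, and it ranged from -0.40 to 0.42 when 1 mouse was left out, with 0.42 without LFD-fed mouse 3. *Casq2* ranged from -1.98 to 0.51 when 1 mouse was left out, with 0.51 without LFD-fed mouse 2, and was below 0 in the other settings. The other 9 genes were below 0 in every setting that gave them a value. With log2(TPM + 1) the median of the 10 genes was -3.04, and *Trdn* had -3.57, *Jph2* -2.32, *Jsrp1* -3.66, *Stac3* -2.61 and *Hrc* -3.48, since the added 1 exceeds most HFD values. With a minimum of 10 counts in every mouse, which leaves out 6 of the 10 genes, the median was -2.75, and that of the partners -0.87. The difference in the *Jph1* share, HFD minus LFD, was 0.023 percentage points and ranged from -9.33 to 6.75 when 1 mouse was left out, with -9.33 without HFD-fed mouse 1, -1.88 without LFD-fed mouse 1 and -0.082 without LFD-fed mouse 3. Without *Mb* the median log2 ratio to the fibre markers, HFD minus LFD, was 2.25 beside 1.35, a setting added after seeing the data. Where no value shows it, the cause was not tested. The depth limits most of all *Hrc*, *Jsrp1*, *Trdn* and *Pvalb* in HFD-fed mouse 3, with 1 or 2 counts each.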
